A study of Mus musculus with 34 samples.

Results

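Solute carriers are membrane proteins that move amino acids, sugars, ions, metals, vitamins and other small molecules into, out of and within cells. Binding of BATF, IRF4 and Foxp3 was examined here at every peak whose nearest protein-coding gene is a solute carrier gene. A peak was a member when the gene body nearest to its midpoint, at most 100000 bp away, had a symbol made of Slc, a family number, the letter a and a member number. This chose 563 of 41612 peaks in 4 peak tables: 236 of 16109 in the first BATF table, 164 of 9973 in the second, 96 of 9134 for IRF4 and 67 of 6396 for Foxp3. They belong to 157 of 346 solute carrier genes in the annotation. For 3 of these symbols (Slc4a1ap, Slc9a3r1 and Slc7a6os, 15 peaks) further letters follow the number, and the genes encode partner or neighbour proteins and no transporters. The nearest gene is a label of position and need not be the gene that a site regulates.

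Chromatin immunoprecipitation and sequencing was done on CD4 T cells of C57BL6/J mice, freshly sorted from lymph nodes and spleen. In the Foxp3-IRES-hCD2 reporter, human CD2 on the cell surface marks cells that express Foxp3, so that regulatory T (Treg) cells were CD4+hCD2+ and conventional T (Tconv) cells CD4+hCD2-. BATF was measured in Treg and Tconv cells of these mice (2 libraries each) and IRF4 in the same kinds of cell (4 libraries each). Foxp3 was measured, with 2 libraries each, in effector Treg cells (eTreg, CD4+hCD2+CCR7loCD62Llo), central Treg cells (cTreg, CD4+hCD2+CCR7hiCD62LhiCD44lo), unfractionated wild-type Treg cells and unfractionated Treg cells of Foxp3-IRES-hCD2.Batf-/- mice. BATF was also measured in CD4+hCD2+GFP- Treg cells with the Foxp3 mutation R397W (genotype Foxp3R397W-IRES-hCD2/Foxp3-IRES-GFP) and in controls (Foxp3WT-IRES-hCD2/Foxp3-IRES-GFP), with 2 libraries each. Both of these genotypes also hold a second, GFP-marked Foxp3 allele, and the GFP- sort takes cells that do not show it. The labels give neither the age nor the sex of the mice, and do not say whether libraries of a group came from separate mice, so the p-values measure the spread between these libraries. A change in the number of cells of 1 kind within a sorted population and a change in binding per cell cannot be told apart.

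BATF is an AP-1 family factor that pairs with Jun proteins and, at composite sites, binds DNA together with IRF4. Both are induced by antigen receptor signals, and Foxp3 is the lineage factor of Treg cells. Activated T cells raise their uptake of glucose, glutamine, leucine and arginine through transporters such as Slc2a1, Slc2a3, Slc1a5, Slc38a1, Slc7a1 and the Slc7a5 and Slc3a2 heterodimer.

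Promoter windows are shown first because many BATF and some IRF4 member peaks overlapped them. Of member peaks lower in Treg than in Tconv cells, 5 of 13 lay there for IRF4 and 2 of 15 for BATF. Over all peaks it was 219 of 766 for IRF4 and 129 of 772 for BATF, and these shares were not tested against each other. The 2 BATF calls, at Slc27a4 and Slc30a4, and the IRF4 calls at Slc39a13 and Slc44a1 were each lost without 1 or another library. RefSeq promoter sequences (GRCm38.p6, from 250 bases before to 50 bases after a start) were found for 122 of the 157 genes, and a member peak overlapped the window of its own gene for 80 of them. BATF peaks of the first table did so at 79 genes, IRF4 peaks at 22 and Foxp3 peaks at 3. Motif letters were searched on both strands of the whole window, and their distance from the middle of a peak was not measured. The AP-1 letters TGANTCA stood in 5 of these 88 windows (5.68%, against 7.81% of all 32851 windows and 3.97% of the 6927 windows that any gene's own peak overlapped). The interferon regulatory factor letters, GAAA repeated after any 2 bases, stood in 2 (2.27%, against 3.44% and 2.96%), and the forkhead letters TGTTTAC in 1 (1.14%, against 3.65% and 2.64%). The AP-1 letters followed by GAAA after any 4 bases, or directly preceded by GAAA, which are both subsets of the AP-1 matches, stood in none (0.119% and 0.125% of all windows). The windows with a member peak were rich in C and G, with a median of 64.7% against 52.7% over all windows and a median of 23.5 CpG against 7, much like the windows that any gene's own peak overlapped (62.3% and 23).

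The first sequence is the promoter of Slc7a1, which encodes the cationic amino acid transporter CAT-1 (chr5:148399855-148400154, minus strand), printed because it holds the AP-1 letters and is overlapped by a BATF and an IRF4 peak. The second belongs to Slc37a2, a sugar phosphate exchanger (chr9:37255689-37255988, minus strand), which also holds them and is overlapped by BATF peaks. The third belongs to Slc39a3, a zinc importer (chr10:81037266-81037565, minus strand), and is printed because IRF4 was lower there in Treg cells although none of the searched letters is present. Each runs 5′ to 3′ along its gene, and capitals mark the AP-1 letters.
Slc7a1: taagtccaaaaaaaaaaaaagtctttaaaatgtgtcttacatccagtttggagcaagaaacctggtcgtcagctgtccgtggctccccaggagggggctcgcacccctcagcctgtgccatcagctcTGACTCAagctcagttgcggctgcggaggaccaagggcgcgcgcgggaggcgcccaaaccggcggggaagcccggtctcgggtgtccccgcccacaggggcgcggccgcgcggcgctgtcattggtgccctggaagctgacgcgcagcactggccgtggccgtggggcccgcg
Slc37a2: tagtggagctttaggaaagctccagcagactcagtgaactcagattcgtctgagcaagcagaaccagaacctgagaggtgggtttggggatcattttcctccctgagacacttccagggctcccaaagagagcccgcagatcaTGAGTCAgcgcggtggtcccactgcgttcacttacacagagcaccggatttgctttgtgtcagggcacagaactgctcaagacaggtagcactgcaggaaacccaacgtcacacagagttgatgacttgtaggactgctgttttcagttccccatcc
Slc39a3: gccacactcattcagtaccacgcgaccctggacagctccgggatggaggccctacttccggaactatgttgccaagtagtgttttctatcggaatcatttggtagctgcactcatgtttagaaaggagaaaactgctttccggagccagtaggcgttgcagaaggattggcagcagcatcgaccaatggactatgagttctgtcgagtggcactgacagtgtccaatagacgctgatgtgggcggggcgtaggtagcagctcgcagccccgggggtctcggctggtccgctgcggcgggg

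Values are the authors' normalised peak scores, in effect reads in a peak times 1 factor per library, and each table has its own scale, so that levels are compared only within a table. The first BATF table is the deepest, with 1377509 to 2280493 reads in peaks per library. The second holds 144319 to 1009580, that of IRF4 162580 to 336969 and that of Foxp3 164740 to 393310. As a check of the sorts, the 28 BATF peaks nearest to 5 Treg marker genes (Foxp3, Il2ra, Ikzf2, Ctla4 and Nrp1) summed to 3730 to 4137 in Treg and 836 to 889 in Tconv libraries. The same sum over 15 IRF4 peaks was 1310 to 1341 against 432 to 688. Over 8 BATF peaks it was 245 to 299 in R397W against 760 to 844 in control libraries. Both of these groups were sorted as Treg cells, so this difference cannot check a sort, and its cause was not tested. Among markers of other cells, 3 BATF peaks of B cell genes summed to 178 to 201 in Treg against 107 to 146 in Tconv libraries. The sum over 8 BATF peaks of CD8 and NK cell genes went the other way, at 384 to 424 in Treg against 434 to 455 in Tconv libraries. Of 4 myeloid genes 1 had a BATF peak, which stood at 42.9 to 43.5 against 2.32 to 4.28, and 2 such peaks summed to 14.6 to 15.4 in R397W against 65.7 to 66.3 in control libraries. The part of such cells in the results was not tested. Foxp3 at 8 peaks of Tcf7, Lef1 and Ccr7, genes of resting T cells, summed to 246 to 276 in eTreg and 441 to 483 in cTreg libraries. At 2 peaks of CD8 and NK cell genes it summed to 78.6 to 100.9 in eTreg and 52.6 to 54.6 in cTreg libraries, and the part of this in the results was also not tested. Batf has no nearest Foxp3 peak, and the deletion of Batf was therefore not checked.

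Solute carrier peaks differed between groups in all 5 comparisons, and their shares are given beside those of all peaks, without a test of the difference in share. Differences between groups were tested with limma on log2 of the value with 1 added, and a Benjamini-Hochberg adjusted p under 0.05 over all peaks of a table is a call. BATF was higher in Treg cells at 23 of 236 member peaks (9.75%, against 14.9% of all peaks) and lower at 15 (6.36% against 4.79%). IRF4 was higher in Treg cells at 14 of 96 (14.6% against 15.8%) and lower at 13 (13.5% against 8.39%). Foxp3 was higher in eTreg than in cTreg cells at 17 of 67 (25.4% against 15%) and lower at 15 (22.4% against 10.8%). In Batf-/- Treg cells Foxp3 was lower at 4 member peaks (5.97% against 3.91%) and higher at 0 (0% against 0.547%; 4 member peaks had an unadjusted p under 0.05 in the limma fit, and a count model was not run). BATF in R397W Treg cells was lower at 9 of 164 (5.49% against 8.04%) and higher at 1 (0.61% against 0.612%). Some of these counts rest on single libraries. Without the first central Treg library, 9 Foxp3 member peaks were higher and 9 lower in eTreg cells, and without the second effector library 11 were higher. Without the second Tconv library 9 BATF peaks were lower in Treg cells, and without the fourth IRF4 Treg library 8 were higher. Without either wild-type Treg library 1 Foxp3 peak was lower in the knockout. Without the deeper of the R397W controls 5 peaks were lower and 5 higher, and without the shallower one 4 were lower. Under quantile normalisation the BATF split between Treg and Tconv cells was 21 higher and 28 lower, that of IRF4 was 11 and 16, and that of R397W was 2 and 7. The median log2 fold change of all BATF peaks then moved from -0.03 to -0.13, and that of all R397W peaks from -0.02 to 0.13. The plot of called shares sets the member peaks beside all peaks.

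**Figure D1:**
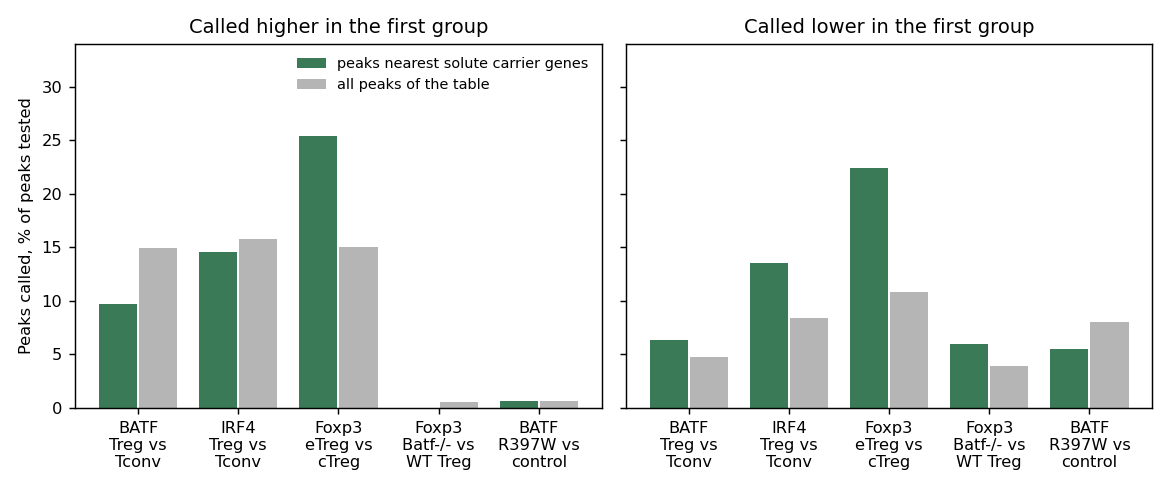
Share of tested peaks called higher (left) or lower (right) in the first group of each of 5 comparisons, in %, for peaks nearest to solute carrier genes (green) and all peaks of the same table (grey). Shares for Foxp3 in eTreg against cTreg cells are 25.4% and 22.4% of member peaks, counts of 17 and 15 that were 9 and 9 without the first central Treg library, and BATF higher in Treg cells is 9.75%.

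A few sites carried differences in several comparisons, and all 4 described first were bound by all 3 factors. Slc2a3 encodes GLUT3, a high-affinity glucose transporter. Of its 5 BATF peaks in the first table, 1 within the gene body (chr6:122758815-122759215) was higher in Treg cells. BATF there stood at 57 and 53.1 in Treg and at 6.97 and 0.714 in Tconv libraries, with no overlap (15.2-fold with 1 added to each value; log2 fold change 3.92, SE 0.72, limma adjusted p = 0.000698). The other 4 peaks of the gene had log2 fold changes of 0.31 to 0.75 and no call. Foxp3 at the site stood at 41.8 and 48.4 in eTreg and 9.32 and 8.9 in cTreg libraries (log2 fold change 2.19, SE 0.38, limma adjusted p = 0.000127). It stood at 32.4 and 39.3 in wild-type Treg and at 10.2 and 6.43 in Batf-/- libraries (log2 fold change -2.01, SE 0.38, limma adjusted p = 0.0016). At this site the knockout libraries thus lay near the central Treg libraries, and the wild-type Treg libraries between the central and effector ones. The wild-type Treg libraries lay above both the central and effector ones at the Slc17a6, Slc19a3 and Slc1a2 sites described below. Without the second wild-type Treg library the adjusted p of the knockout difference was 0.0553.

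BATF at the Slc2a3 site was also lower with the R397W mutation, at 5.13 and 1.39 against 49.4 and 17.3 in the controls (5 reads against 37; log2 fold change -2.99, SE 0.83, limma adjusted p = 0.0337). The control libraries themselves were far apart, and the call was lost under 5 alternatives, among them leaving out either control library, with a highest adjusted p of 0.217. IRF4 at the site was low in all libraries, at 16.6, 7.93, 11.8 and 15.3 in Treg and 9.69, 1.39, 2.71 and 5.71 in Tconv cells. These groups overlapped and the difference did not pass the test (log2 fold change 1.42, SE 0.54, limma adjusted p = 0.0584), but it was called under 4 alternatives, among them leaving out the first Tconv library (lowest adjusted p 0.023).

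Slc17a6 encodes a vesicular glutamate transporter known from neurons, and its site lay 53052 bp from the gene (chr7:51723978-51724378), with Ano5 as the next nearest gene at 125471 bp. Under the settings used here it was the only member site called in all 5 comparisons. With a pseudocount of 4 the Slc2a3 site was called in all 5 as well. BATF stood at 240.5 and 159 in Treg and at 18.6 and 17.9 in Tconv libraries (log2 fold change 3.36, SE 0.31, limma adjusted p = 1.29e-06). IRF4 stood at 59.9, 68.2, 59.8 and 60.5 against 24.2, 22.3, 10.8 and 17.1 (log2 fold change 1.74, SE 0.27, limma adjusted p = 7.35e-05). Treg libraries were above all Tconv libraries for both factors. Foxp3 rose from 1.33 and 2.97 in cTreg to 51.9 and 59.4 in eTreg libraries (5 reads against 144; log2 fold change 4.22, SE 0.34, limma adjusted p = 1.72e-08). It fell from 104 and 84.4 in wild-type to 32.5 and 30.9 in Batf-/- libraries, by 1.54 on the log2 scale (SE 0.34, limma adjusted p = 0.00695; 0.125 at most when 1 of the wild-type libraries was left out). BATF stood at 42.7 and 45 in R397W and at 133 and 173 in control libraries (log2 fold change -1.76, SE 0.28, limma adjusted p = 0.00293). The low libraries of each comparison still had signal for BATF and IRF4, while the central Treg libraries had almost none for Foxp3.

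Slc19a3 encodes a thiamine transporter, and its site lay 6198 bp from the gene (chr1:83006125-83006525). BATF stood at 147 and 141 in Treg and at 4.65 and 18.6 in Tconv libraries (log2 fold change 3.79, SE 0.48, limma adjusted p = 2.45e-05). IRF4 stood at 42.4, 36.5, 29.9 and 49.4 against 33.9, 17.4, 6.32 and 3.43, where the highest Tconv library overlapped the Treg range (log2 fold change 1.73, SE 0.45, limma adjusted p = 0.00629). Foxp3 stood at 22.8 and 27.1 in eTreg and 7.99 and 4.45 in cTreg libraries (log2 fold change 1.89, SE 0.40, limma adjusted p = 0.000923). In the knockout it stood at 31.5 and 18 against 33.4 and 30.9, which overlapped (log2 fold change -0.41, SE 0.40, limma adjusted p = 0.662). R397W libraries stood at 47.9 and 49.2 against 106 and 100.3 for BATF (log2 fold change -1.07, SE 0.29, limma adjusted p = 0.0267), a call that was lost whenever any 1 of the 4 libraries was left out (adjusted p up to 0.136).

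Slc1a2 encodes a glutamate transporter of astrocytes, and a site within its body (chr2:102733091-102733491) has Cd44, an adhesion receptor of activated T cells, as the next nearest gene at 77850 bp. BATF stood at 74.6 and 77.9 in Treg and 10.5 and 3.57 in Tconv libraries (log2 fold change 3.42, SE 0.53, limma adjusted p = 0.000147). IRF4 stood at 26.7, 34.9, 27.8 and 26.4 against 20.2, 13.2, 5.41 and 4.57 without overlap (log2 fold change 1.55, SE 0.41, limma adjusted p = 0.00733). Foxp3 stood at 36.7 and 27.1 in eTreg and 14.7 and 7.41 in cTreg libraries (log2 fold change 1.51, SE 0.35, limma adjusted p = 0.00219; 0.0609 without the second central Treg library). The knockout and wild-type libraries overlapped, at 66.1 and 36 against 54.6 and 66.8 (log2 fold change -0.30, SE 0.35, limma adjusted p = 0.731). R397W libraries stood at 18.8 and 14.6 for BATF against 61.7 and 65.7 (log2 fold change -1.88, SE 0.42, limma adjusted p = 0.0117; up to 0.163 when 1 control library was left out). At all 4 sites BATF was higher in Treg cells and lower with R397W. This follows from their choice as sites called in several comparisons and is no pattern across sites. A fall of Foxp3 in Batf-/- cells was called at Slc2a3 and Slc17a6 and not at Slc19a3 and Slc1a2. Whether the knockout effect differs between sites was not tested.

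**Figure D2:**
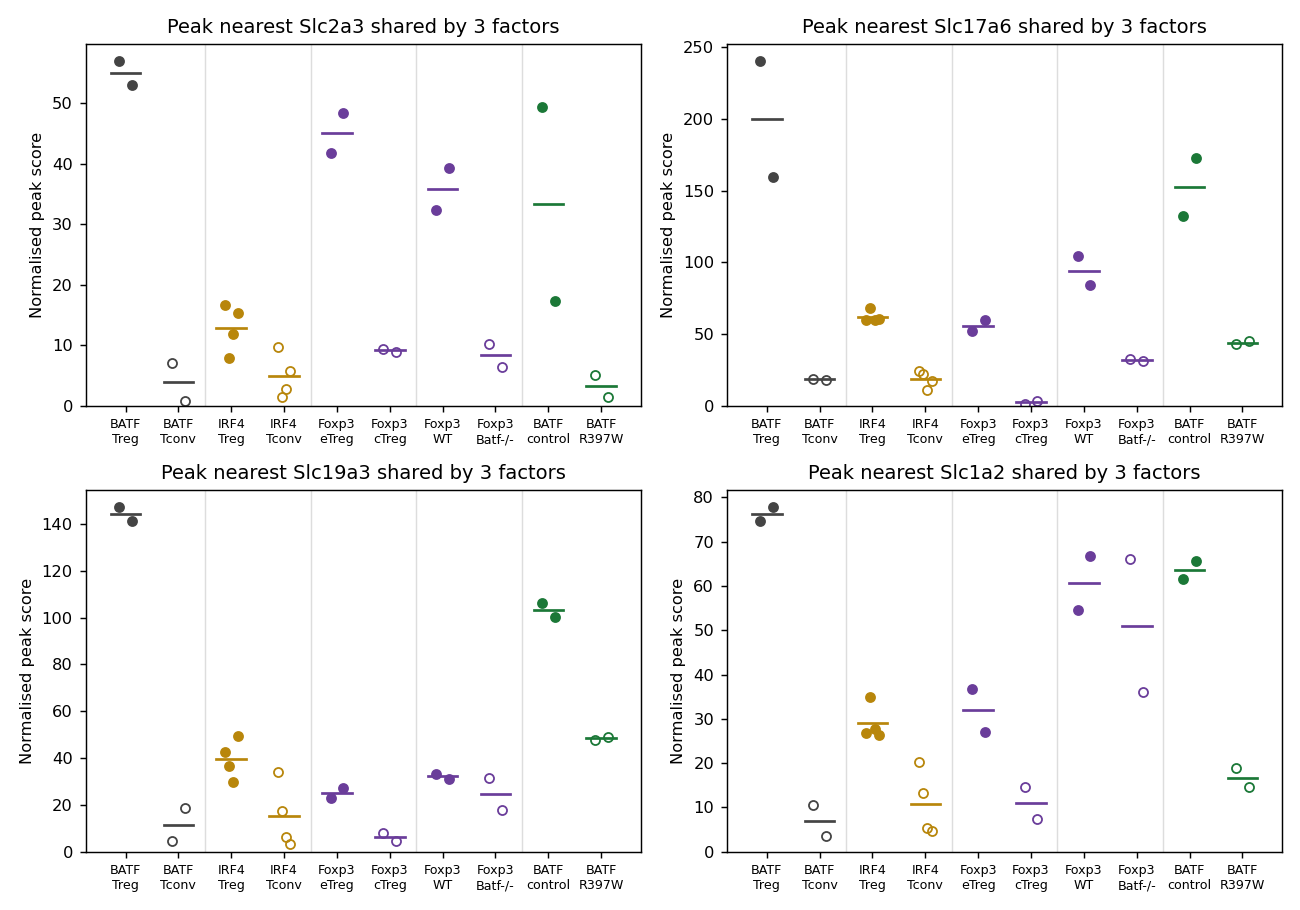
Normalised peak score (vertical axis, own scale per factor and table) in each library at 4 sites bound by BATF, IRF4 and Foxp3; points are libraries, bars are group means, and vertical lines separate the pairs of groups compared. Filled and open points stand for the first and second group of each pair, and for Slc17a6 the groups of all 5 pairs are apart.

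Over all 26 member sites with a peak of each of the 3 factors, near 21 genes, 22 have a BATF peak in the first table, and 7 of these were higher and 1 lower in Treg cells (31.8% and 4.55%; 37% and 4.37% of all sites of the 3 factors). IRF4 was higher at 7 and lower at 5 of the 26 (26.9% and 19.2%; 22.1% and 8.18%). Foxp3 was higher in eTreg cells at 6 and lower at 2 (23.1% and 7.69%; 20.2% and 11%). In the knockout Foxp3 was lower at 4 (15.4%; 7.48%) and higher at 0 (0.394%), and BATF was lower with R397W at 4 of 22 (18.2%; 18.1%). These shares were not tested against each other. Sites of all 3 factors made up 9.12% of 285 member sites and 10.5% of all 21757 sites. Sites with BATF alone made up 53.7% of member sites (153) and 40.5% of all sites, and Foxp3 alone 6.67% (19) against 12.8%.

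Among amino acid transporter genes, 8 of 46 BATF peaks were higher in Treg cells and 1 was lower, where 14.9% and 4.79% of all peaks were. Roles were set by family number alone. The glutamate transporter gene Slc17a6 and the aromatic amino acid transporter gene Slc16a10 were therefore counted under other roles. No count by role was tested against all peaks. Slc1a4 encodes the neutral amino acid exchanger ASCT1, and BATF 19433 bp from it stood at 80.9 and 65.5 in Treg and 9.29 and 2.14 in Tconv libraries (log2 fold change 3.70, SE 0.59, limma adjusted p = 0.000213). IRF4 at that site stood at 46.1, 50.8, 50.2 and 54.6 against 8.89, 4.87, 9.02 and 2.29, the largest IRF4 rise among members (log2 fold change 2.96, SE 0.38, limma adjusted p = 7.54e-06). Both factors were thus low in every Tconv library. Near Slc7a10, the Asc-1 transporter of small neutral amino acids, BATF stood at 61.2 and 57.6 in Treg against 0 and 1.43 in Tconv libraries (110 reads against 2, a ratio of 67.2 with a 95% counting interval of 18.2 to 562). IRF4 there stood at 39.6, 28.6, 19.2 and 29 against 17, 1.39, 2.71 and 4.57 (log2 fold change 2.42, SE 0.51, limma adjusted p = 0.00121). Slc38a1 encodes the glutamine transporter SNAT1, and 2 peaks within it rose for BATF: from 75.5 and 75.0 to 273 and 201, and from 121 and 116 to 263 and 302 (log2 fold changes 1.62 and 1.24). IRF4 at the first of these was higher by 0.78 on the log2 scale (SE 0.25, limma adjusted p = 0.0219, and up to 0.0881 over the alternatives).

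The arginine transporter gene Slc7a1 had a BATF peak 1222 bp inside the gene at 70.5 and 125 in Treg and 22.1 and 25.7 in Tconv libraries (log2 fold change 1.94, SE 0.36, limma adjusted p = 0.000697). Its promoter peak, over the sequence printed first above, stood at 192 and 110 in Treg and at 178 and 129 in Tconv libraries, which overlapped, with no call. Slc1a5, the glutamine transporter ASCT2, had 1 peak higher in Treg cells, at 77.7 and 65.5 against 33.7 and 32.1 (log2 fold change 1.09, SE 0.33, limma adjusted p = 0.0231; 0.15 at most over the alternatives). Slc36a3, of the proton-assisted amino acid transporter family, had 306 and 305 against 74.3 and 119 (log2 fold change 1.69, SE 0.22, limma adjusted p = 2.99e-05). The amino acid gene with a lower BATF peak was Slc6a19, the neutral amino acid transporter of gut and kidney, at 24.9 and 27.1 against 61.6 and 87.1 (log2 fold change -1.46, SE 0.35, limma adjusted p = 0.00574; 0.0809 without the second Tconv library).

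Ion transporter genes went both ways for BATF, with 5 of 33 peaks higher and 6 lower in Treg cells (14.9% and 4.79% of all peaks). Slc12a8, of the cation-chloride cotransporter family, had both of its peaks higher, at 38.4 and 41.8 against 5.81 and 5.0, and at 177 and 136 against 41.8 and 37.1 (log2 fold changes 2.68 and 1.95). The first of these lost its call without the second Treg library (limma adjusted p = 0.07). Slc4a7, a sodium bicarbonate cotransporter, had a peak 69633 bp away at 286 and 207 against 76.7 and 62.1 (log2 fold change 1.80, SE 0.22, limma adjusted p = 2.14e-05). In Slc4a4, another bicarbonate cotransporter gene, BATF stood at 1.04 and 0 in Treg and 51.1 and 44.3 in Tconv libraries (1 read against 106, a Tconv to Treg ratio of 86.7 with a 95% counting interval of 15.2 to 3457). This was the largest fall among members, and the 2 Treg libraries hold almost no signal there. Metal transporter genes had 1 peak higher and 2 lower of 33, and lipid, choline and acetyl-CoA transporter genes 0 higher and 2 lower of 10. Genes of the mitochondrial carrier family (family 25) had 2 higher and 0 lower of 37, near Slc25a45 and the peroxisomal carrier gene Slc25a17. The call at Slc25a17 (limma adjusted p = 0.029) was lost without a trend of the spread and when any 1 library was left out. Its log2 fold change was 0.57 to 0.80 over the alternatives. The zinc transporter gene Slc30a7 had a peak at 27 and 20.3 against 87.1 and 73.6 (log2 fold change -1.73, SE 0.35, limma adjusted p = 0.00153). The choline transporter-like gene Slc44a2 had 1 at 17.6 and 18.1 against 65.0 and 71.4 (log2 fold change -1.88, SE 0.38, limma adjusted p = 0.00158).

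For IRF4, 5 of 24 peaks of the amino acid transporter families were higher in Treg cells and 1 was lower. Of 14 ion transporter peaks 3 went each way, where 15.8% of all peaks were higher and 8.39% lower. Outside the amino acid families by number, the Slc17a6 peak was higher. A peak of Slc16a10 was lower (log2 fold change -1.17, limma adjusted p = 0.0219; 0.0837 at most over the alternatives). Neither the 8 peaks of family 25 nor the 6 sugar transporter peaks held a call. Slc22a15, of the organic ion transporter family, had 2 higher peaks, at 22.1, 28.6, 13.9 and 29.8 against 4.85, 3.48, 13.5 and 2.29 at 1 of them (log2 fold change 1.99, SE 0.48, limma adjusted p = 0.00371). Slc12a8 stood at 37.8, 42.8, 33.1 and 42.6 against 10.5, 12.5, 14.4 and 5.71 (log2 fold change 1.82, SE 0.34, limma adjusted p = 0.000337). Treg libraries lay above all Tconv libraries at both. Lower in Treg cells were 3 of 4 peaks of lipid, choline and acetyl-CoA transporters, among them the promoter of Slc33a1, the acetyl-CoA transporter of the endoplasmic reticulum. It stood at 41.5, 47.6, 38.5 and 25.6 against 110, 58.5, 74.0 and 73.1 (log2 fold change -1.02, SE 0.25, limma adjusted p = 0.00389), and the midpoint of this peak lies inside both Slc33a1 and Gmps. At the Slc39a3 promoter printed above, IRF4 stood at 40.6, 36.5, 19.2 and 28.1 against 131, 94.7, 37 and 76.6 (log2 fold change -1.34, SE 0.31, limma adjusted p = 0.00253), with 1 Tconv library inside the Treg range. Slc20a1, a phosphate transporter, had a peak 18594 bp upstream at 23, 25.4, 13.9 and 4.26 against 46, 36.2, 39.7 and 44.6 (log2 fold change -1.51, SE 0.39, limma adjusted p = 0.0056).

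At 74 sites that carry both a BATF and an IRF4 member peak, the Treg against Tconv log2 fold changes of the factors went together (Pearson r 0.86, Spearman rho 0.70). This is a description over sites of separate libraries, as the same correlations over all 6924 such sites were 0.83 and 0.70. Of 17 sites where BATF was higher, 9 were also higher for IRF4 (52.9%), and these were all 9 IRF4-higher sites. Over all sites the shares were 53.0% of BATF-higher and 95.5% of IRF4-higher sites. Of 3 sites lower for BATF, all 3 were lower for IRF4, out of 11 IRF4-lower sites (27.3%; 55.9% and 26.3% over all sites). The other 8 IRF4-lower sites had no BATF call, so that the IRF4 falls at Slc33a1 and Slc39a3 stood beside BATF log2 fold changes of -0.30 and 0.30 at the same promoters. At 38 sites with BATF and Foxp3 peaks, BATF higher in Treg cells and Foxp3 higher in eTreg cells met at 6 (75% of 8 BATF sites and 100% of 6 Foxp3 sites; 43.8% and 86.4% over all 3084 sites). Both were lower at 3 of 4 BATF-lower and 7 Foxp3-lower sites (75% and 42.9%; 59.5% and 22.8% over all sites), with r 0.82 and rho 0.70 against 0.71 and 0.65 over all sites. These shares were not tested against each other. The 3 sites lower for both were near Slc4a8, Slc6a19 and Slc49a4, and each lost a call in at least 1 of the 2 comparisons when 1 library was left out (adjusted p up to 0.292). Slc28a2, a concentrative nucleoside transporter with a close copy, Slc28a2b, 15516 bp from the Foxp3 peak, had 1 lower peak for each factor. The IRF4 and Foxp3 peaks are at 1 place, and the lower BATF peak of the first table is at another. The second BATF table has a peak at the place of the IRF4 and Foxp3 peaks. BATF stood there at 14.3 and 30.2 in Treg and at 50.0 and 76.0 in Tconv libraries, a difference that was not tested. Reads of the 2 gene copies may not be separable.

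**Figure D3:**
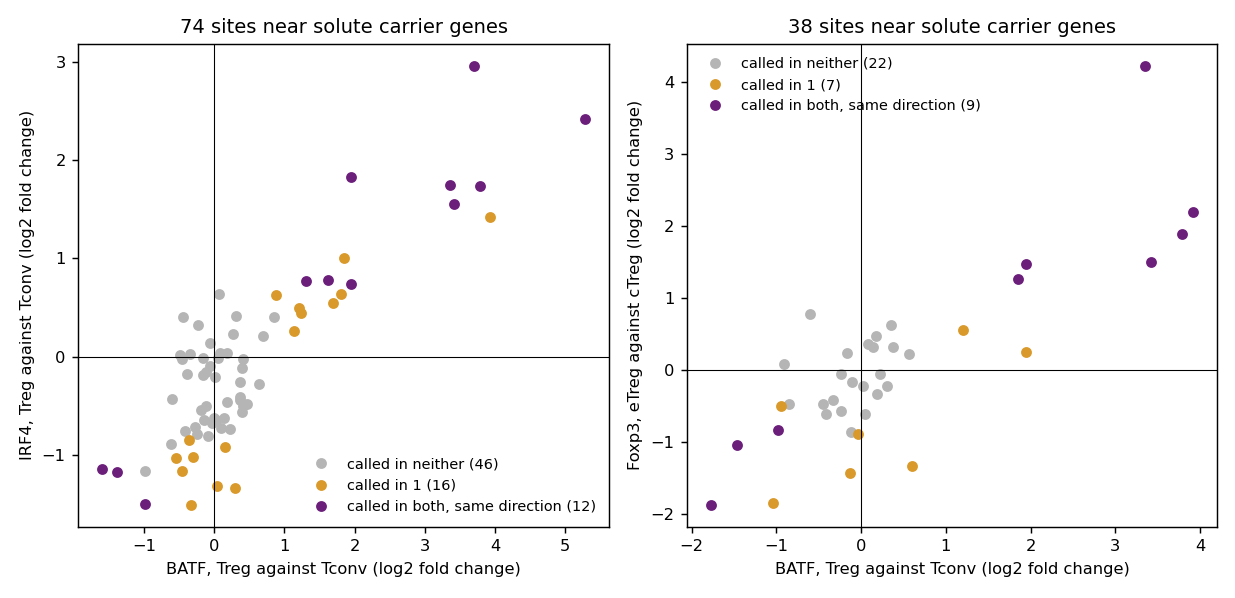
Log2 fold change of BATF in Treg against Tconv cells (horizontal axis) and of IRF4 in the same contrast (left, 74 sites) or Foxp3 in eTreg against cTreg cells (right, 38 sites) at shared member sites; each point is a site. Sites called in both lie in the upper right (9 and 6) or lower left (3 and 3), and no site was called in opposite directions.

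Foxp3 differed between effector and central Treg cells at 32 of 67 member peaks. Ion transporter genes had 8 peaks higher and 1 lower of 21, and metal transporter genes 1 higher and 6 lower of 9, where 15% and 10.8% of all peaks were. Of the 8, 5 belong to 1 gene, Slc9a9, and of the 6, 4 to Slc30a7, so these counts are largely counts of 2 genes. Slc9a9 encodes an endosomal sodium-proton exchanger and had the most member peaks, 27 over the 4 tables. Its 5 rising Foxp3 peaks ran from 48571 bp outside the gene to 482025 bp past its start. The largest change was at the last of these, at 30.4 and 36.9 in eTreg against 9.32 and 3.71 in cTreg libraries (log2 fold change 2.31, SE 0.58, limma adjusted p = 0.00422, and 0.0824 at most when 1 library was left out). At the peak upstream of the gene Foxp3 stood at 57 and 35.8 against 10.7 and 11.9 (log2 fold change 1.92, SE 0.33, limma adjusted p = 0.000127), and it kept its call without any 1 library. None of the other 3 did, with adjusted p up to 0.48. BATF at the same gene was higher in Treg cells at 1 peak, 8498 bp from the start (49.8 and 41.8 against 11.6 and 12.1; log2 fold change 1.86, limma adjusted p = 0.00807 and up to 0.0981 without 1 Treg library), and lower at 2, about 402896 and 645441 bp from it (log2 fold changes -1.59 and -1.39). IRF4 was lower at the same 2 places (-1.15 and -1.17) and higher at 2 others, 62317 bp outside the gene (1.35) and 443645 bp past its start (1.64). Of these 4 IRF4 calls, that at 645423 bp was kept without any 1 library, and the others reached an adjusted p of up to 0.102.

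Slc30a7 encodes a zinc transporter of the Golgi, and all 4 of its Foxp3 peaks were lower in eTreg cells. At 66704 bp from the start Foxp3 stood at 2.53 and 6.34 in eTreg and 75.9 and 89.0 in cTreg libraries (16.3-fold; log2 fold change -4.03, SE 0.35, limma adjusted p = 2.79e-08). At 62775 bp it stood at 10.1 and 2.88 against 50.6 and 43 (log2 fold change -2.86, SE 0.45, limma adjusted p = 4.67e-05), and the other 2 peaks had log2 fold changes of -1.43 and -0.97, the last with an adjusted p of up to 0.239 when 1 library was left out. In all wild-type Treg cells, 35.4 and 32.6 at the first of these peaks lay between the effector and central libraries. The next nearest gene of the 2 most affected peaks is Dph5, 6341 and 10270 bp away. Slc38a6, an orphan member of the glutamine transporter family, had a Foxp3 peak 20481 bp away at 3.8 and 7.5 in eTreg against 71.9 and 80.1 in cTreg libraries (log2 fold change -3.59, SE 0.42, limma adjusted p = 1.11e-06). In the other direction, Slc5a11, a sodium-coupled inositol transporter gene, had 45.6 and 43.8 against 4.0 and 5.19 (log2 fold change 3.04, SE 0.56, limma adjusted p = 0.000213), and Slc30a5, a zinc transporter gene, had a peak 33199 bp away at 97.6 and 149 against 34.6 and 57.1 (log2 fold change 1.42, SE 0.27, limma adjusted p = 0.000299). All wild-type Treg libraries stood at 7.08 and 7.52 at the Slc5a11 peak, near the central ones.

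**Figure D4:**
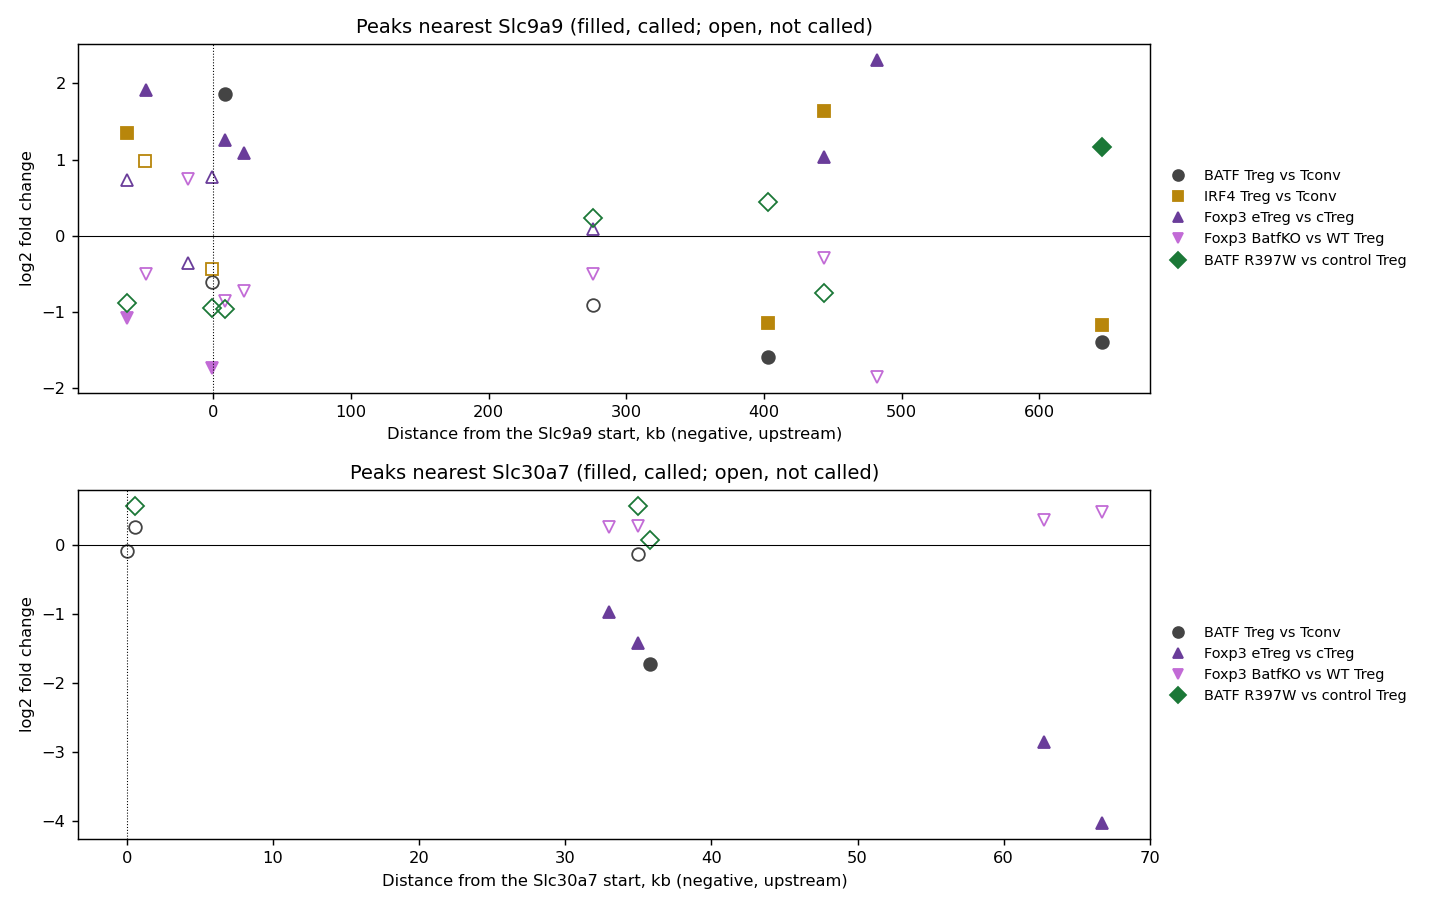
Log2 fold change of each peak nearest to Slc9a9 (top) and Slc30a7 (bottom) by its distance from the gene's start in kb, with 1 symbol for each comparison, filled where called. Peaks of Slc9a9 went both ways along the gene, and all 4 Foxp3 peaks of Slc30a7 lay below 0 in eTreg against cTreg cells and above 0, without a call, in Batf-/- against wild-type Treg cells.

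In Batf-/- Treg cells the 4 lower member peaks for Foxp3 were those of Slc2a3 and Slc17a6 given above and 2 upstream of Slc9a9. Marker peaks also moved in this comparison: Foxp3 at 33 Treg marker peaks summed to 1449 to 1517 in the knockout and 1702 to 1728 in wild-type libraries, and at the 8 peaks of Tcf7, Lef1 and Ccr7 to 663 to 753 against 490 to 641. The part of such a shift in the results was not tested. The peak 876 bp from Slc9a9 stood at 18.3 and 7.72 against 47.5 and 37.6 in wild-type libraries (log2 fold change -1.74, SE 0.35, limma adjusted p = 0.00325; 0.0802 without the first wild-type library). The peak 62137 bp from it stood at 41.7 and 29.6 against 89.0 and 63.5 (log2 fold change -1.08, SE 0.28, limma adjusted p = 0.0253; 0.266 at most over the alternatives). Foxp3 peaks of the amino acid transporter families, which do not include Slc17a6, had log2 fold changes of -0.88 to 0.92 and no call among 13. None of the 4 calls was kept under every alternative. Only 2 libraries stand on each side.

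BATF in R397W Treg cells was lower at 9 member peaks, near 8 genes. The largest fall with more than 3 reads in each group was at Slc1a4, the site described above, at 5.13 and 0.693 against 94.1 and 83.0 (4 reads against 85; log2 fold change -4.79, SE 0.69, limma adjusted p = 0.0019). It kept its call under all alternatives. Slc24a3, a potassium-dependent sodium-calcium exchanger gene, had 2 peaks upstream, at 0 and 0.693 against 32.4 and 51.9 (1 read against 36, a control to R397W ratio of 77.9 with a 95% counting interval of 13.1 to 3160), and at 3.42 and 2.77 against 43.2 and 31.1 (limma adjusted p = 0.0116, and up to 0.0739 without 1 control library). Slc25a17, a peroxisomal carrier gene, had 0 and 1.39 against 33.9 and 41.5 (2 reads against 34, a ratio of 36.8 with an interval of 9.43 to 316). Slc22a15 stood at 12 and 6.24 against 38.6 and 72.6 (log2 fold change -2.48, SE 0.56, limma adjusted p = 0.0122; 0.257 at most over the alternatives). All R397W libraries lay below all control libraries at these sites. The 1 higher peak was that 84876 bp beyond Slc9a9, at 85.5 and 75.5 against 40.1 and 31.1 (log2 fold change 1.16, SE 0.33, limma adjusted p = 0.0365; 0.205 at most over the alternatives), where BATF and IRF4 were both lower in Treg than in Tconv cells. At 150 sites with member peaks in both BATF tables, 5 of 15 sites higher in Treg cells were lower with R397W (33.3%), which were all 5 R397W-lower sites, beside 33.4% and 95.1% over all sites, and the log2 fold changes ran in opposite directions (r -0.69, rho -0.48, against -0.69 and -0.58 over all 8765 sites). The BATF peak of Slc7a1 inside the gene stood at 39.3 and 23.6 against 69.4 and 69.2 without passing the test (log2 fold change -1.16, SE 0.37, limma adjusted p = 0.0604), except among peaks above the 25th percentile (adjusted p = 0.0442). A peak 21241 bp from Slc16a10, an aromatic amino acid transporter gene, stood at 58.1 and 54.7 against 20.1 and 24.2 (log2 fold change 1.32, SE 0.40, limma adjusted p = 0.0514), but passed it under 5 alternatives, among them edgeR (lowest adjusted p 0.0251).

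Near starts, rises were uncommon for BATF and IRF4, while 5 IRF4 falls were called, not all of them stable. Within 1000 bp of the gene's own start, a distance chosen after the values were seen, BATF in Treg against Tconv cells was higher at 1 and lower at 2 of 89 member peaks (1.12% and 2.25%; 2.23% and 2.1% over all peaks there). Farther away it was higher at 17 and lower at 11 of 103 (16.5% and 10.7%; 26.7% and 7.9% over all peaks). IRF4 near starts was higher at 0 and lower at 5 of 26 (19.2% lower, against 8.7% over all peaks there). Of these 5, 1 was at Slc4a1ap, which encodes no transporter. Those at Slc44a1 and Slc39a13 lost their calls under several alternatives (adjusted p up to 0.104 and 0.108). Farther away IRF4 was higher at 12 and lower at 8 of 55 (21.8% and 14.5%; 23.9% and 8.74% over all peaks). BATF with R397W had no call among 48 member peaks near starts, where 0.542% of all peaks were lower and 0.574% higher, and 8 of 89 farther ones were lower (8.99%, against 11.9% over all peaks). For 44 BATF member peaks of the first table no start was found for the gene. The single rise near a start was at Slc25a45, a mitochondrial carrier gene, at 216 and 182 against 90.6 and 80.7 for BATF (log2 fold change 1.20, SE 0.21, limma adjusted p = 0.000408). Only 4 Foxp3 member peaks lay near a start, and none was called.

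**Figure D5:**
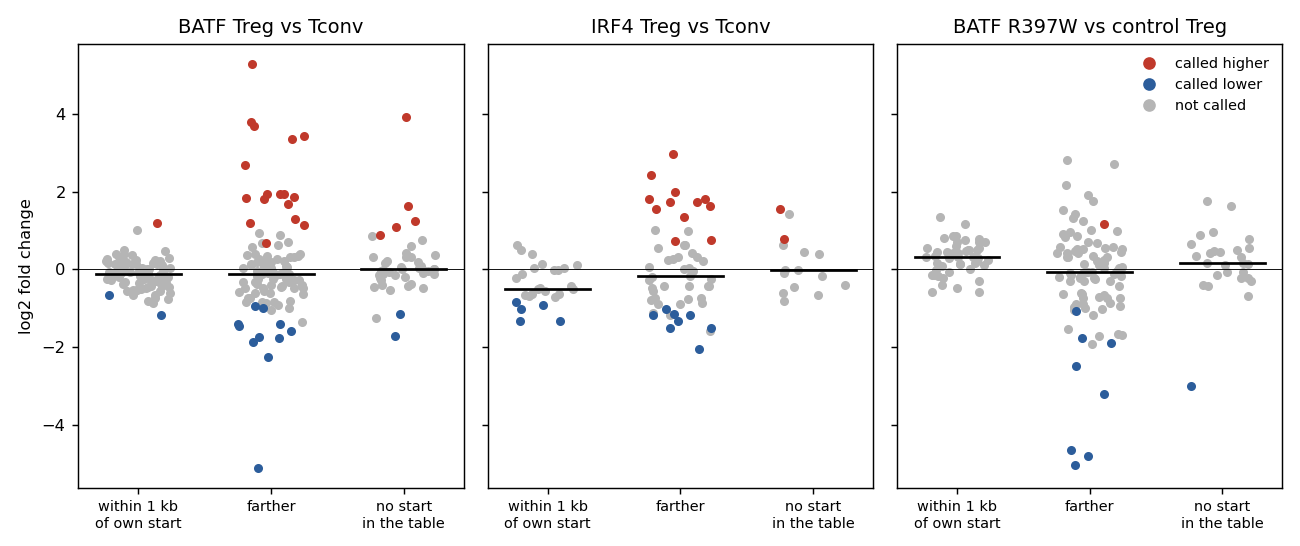
Log2 fold change of each member peak (vertical axis) by its position relative to the gene's own start, for 3 comparisons; points are peaks, coloured where called, and bars are medians. Near starts 1 BATF peak and no IRF4 peak was called higher in Treg cells, and 5 IRF4 peaks were called lower.

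The best known nutrient transporters of T cells mostly carried BATF without a called difference. Of a list of 26 such genes, 23 had a BATF peak in the first table, and 5 of their 47 peaks were higher (2 of Slc38a1, and 1 each of Slc2a3, Slc7a1 and Slc1a5) and 1 was lower in Treg cells, that at the promoter of the fatty acid transporter gene Slc27a4. These are 10.6% and 2.13%, beside 14.9% and 4.79% of all peaks. The call at Slc27a4 (limma adjusted p = 0.0299) was lost without a trend of the spread, and without the second Treg or the first Tconv library. Its log2 fold change was -0.76 to -0.53 over the alternatives. Slc2a1, which encodes GLUT1, stood at 69.5 and 87.0 in Treg and 54.6 and 91.4 in Tconv libraries at its strongest peak (log2 fold change 0.14, SE 0.29, limma adjusted p = 0.817). Slc7a5, the leucine transporter LAT1, stood at 117 and 105 against 118 and 102 (0.01, SE 0.22, adjusted p = 0.982), and its partner Slc3a2 at 147 and 145 against 161 and 195 (-0.28, SE 0.19, adjusted p = 0.38). The taurine transporter gene Slc6a6 stood at 141 and 117 against 95.2 and 97.1 (0.42, SE 0.22, adjusted p = 0.226). These groups overlapped at Slc2a1 and Slc7a5 and not at Slc3a2 and Slc6a6. IRF4 had peaks at 13 of the 26 genes, with 2 of 22 higher and 1 lower (9.09% and 4.55%, beside 15.8% and 8.39%), and Foxp3 at 7, with 3 of 10 higher in eTreg cells (beside 15%). No Foxp3 peak was nearest to Slc7a5, Slc2a1, Slc16a1, Slc16a3 or Slc43a2, and only 44 of the 157 solute carrier genes had one. With R397W, 1 of 26 BATF peaks of the list was lower, that of Slc2a3 (3.85%, beside 8.04%).

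Other transporter and nutrient genes were counted beside the same shares of all peaks, without a test. Slco genes, the organic anion transporters, had 3 of 6 BATF peaks higher and 1 lower in Treg cells (50% and 16.7%), but these 6 peaks belong to only 2 genes. ABC transporter genes had 3 higher and 1 lower of 34 (8.82% and 2.94%, against 14.9% and 4.79% of all peaks). Of 41 genes of nutrient sensing and metabolism, such as the mTOR complex and glycolytic enzymes, 34 had a BATF peak, with 6 of 63 higher and 2 lower (9.52% and 3.17%). For IRF4 it was 5 higher and 3 lower of 46 (10.9% and 6.52%, against 15.8% and 8.39%). For Foxp3 in eTreg against cTreg cells 6 were higher and 1 lower of 32 (18.8% and 3.1%, against 15% and 10.8%). In Batf-/- cells 2 of 32 were lower (6.25%, against 3.91%), and for BATF with R397W 2 of 30 (6.67%, against 8.04%), with none higher in either.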

How the data were processed

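Binding of BATF, IRF4 and Foxp3 was measured in 24 immunoprecipitated libraries, and 10 input samples were not used. Values are normalised peak scores, a signal in intervals that the authors deposited in 4 tables (build mm10). Per the submitters' processing notes, DiffBind 3.12.0, MACS2 2.2.7.1, Bowtie2 2.4.1 and edgeR 3.38.4 were used, with no role given. In each library every value is a whole multiple of 1 step within 0.01 of a read, which recovers whole reads, except that 1 wild-type Foxp3 library's step was not accepted. Of the intervals 99.8% span 400 bp, and whether coordinates count from 0 or 1 was not settled.

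Each peak took the protein-coding gene (RefSeq, GRCm38.p6) whose body lies closest to its midpoint. limma 3.58.1 (R 4.3.3) was fitted to log2(value + 1) over all peaks of a table with a trend of the spread, two-sided, with Benjamini-Hochberg adjustment over the table and a threshold of 0.05. The Foxp3 groups shared 1 fit, and R397W was fitted with its controls alone. Fold changes are on the log2(value + 1) scale, which understates changes of low values. Ratios with under 4 reads in a group have 95% counting intervals, which cover counting error only. The script was tested on simulated data. Alternatives were a pseudocount of 4, peaks above the 25th percentile, quantile normalisation, no trend, other sample sets in the fit, a replicate block, peaks inside gene bodies, leaving out each library and edgeR 4.0.16 (quasi-likelihood, TMM) on the recovered reads.

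The peaks named are, for each comparison, up to 8 called peaks in each direction with the largest log2 fold change and a mean of at least 20 in the higher group, the strongest peak of 26 known T cell transporters, the 5 genes with the most peaks, and sites of all 3 factors. Other named peaks were chosen after their values were seen. The members and lists were chosen with earlier results of these data known.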

Additional observations from a re-analysis of the deposited data

Results flagged for a closer look

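In 4 of 86 groups of 4 IRF4 libraries 1 library stood apart from the other 3, where chance gives about 1 in 20, and all 4 were the second Treg library above the others. IRF4 stood there at 68.2 at the Slc17a6 site (59.8 to 60.5 in the others), at 34.9 at the Slc1a2 site (26.4 to 27.8), at 34.9 at the site beyond Slc9a9 (16 to 17) and at 36.5 at the Slc7a1 promoter (18.2 to 19.4). The differences between Treg and Tconv cells at the first 3 of these sites kept their calls when this library was left out.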

How the results depend on the processing

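Of the called member peaks, 24 of 38 for BATF in Treg against Tconv cells, 14 of 27 for IRF4, 14 of 32 for Foxp3 in eTreg against cTreg cells, 0 of 4 in the knockout and 3 of 10 for R397W kept their call under every alternative run, and none changed direction. Counts are given as higher and lower. With peaks above the 25th percentile they were 15 and 6 for BATF, and 3 were higher for R397W. Inside gene bodies alone they were 15 and 8 for BATF, 6 and 6 for IRF4 and 0 and 3 for R397W, with 6 lower for eTreg against cTreg and 1 lower for the knockout, as fewer peaks were counted. Quantile normalisation gave 28 lower for BATF and 2 higher for R397W. For R397W, a pseudocount of 4 gave 4 higher, no trend 0 higher and 4 lower, a fit on all libraries 9 higher and edgeR 5 higher. The cause was not tested.

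Leaving out 1 library gave 16 to 22 higher and 9 to 17 lower for BATF, 8 to 13 and 10 to 13 for IRF4, 9 to 13 and 9 to 11 for eTreg against cTreg, 0 to 1 and 1 to 6 for the knockout, and 0 to 5 and 4 to 9 for R397W. A lone library left in a group was assumed to vary like the others. Uncalled values that changed sign were Slc2a1 (-0.00518 with quantile normalisation, -0.23 to 0.50 leaving out 1 library), Slc7a5 (-0.063, and -0.0942 to 0.118), a second Slc3a2 peak (-0.359 to 0.034) and Slc1a2 in the knockout (-0.73 to 0.13).

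With the replicate number as a block the counts were 26 and 21 for BATF, 16 and 14 for IRF4, 19 and 15 for eTreg against cTreg, and 0 and 4 for the knockout. Deviations of same-numbered libraries correlated at 0.03 to 0.13 for IRF4, where the third library did not correlate best with its own number, and at 0.08 to 0.14 elsewhere, so the numbers were not taken to pair libraries. No paired analysis was possible for R397W because its groups share no replicate number in the labels, and the control columns could not be matched to single samples. edgeR was not run for the knockout, since the step of 1 wild-type library was not accepted, although its values were whole multiples of that step. edgeR and limma shared 38, 24, 32 and 10 calls for BATF, IRF4, eTreg against cTreg and R397W. Depth limits R397W most: 3 reads are worth 10.4 in the shallower of its control libraries.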
